A study of Homo sapiens with 2 samples.

Results

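MAGEA4-expressing cells were defined as DAC-treated HCT116 cells with 3 or more UMIs of *MAGEA4*, and were thus chosen by the measured *MAGEA4* count itself, which is given here as a description. They numbered 449 of the 1751 DAC-treated cells (25.6%, exact binomial 95% confidence interval 23.6 to 27.8%) and of the 3534 cells in both libraries. HCT116 is an established line from a human colon carcinoma, and DAC (decitabine) is a cytidine analog that traps DNA methyltransferases, so that DNA methylation is lost as cells divide. Transcripts were measured on day 7, after a 0.5 μM dose of the drug on day 1, a repeat dose on day 3, and a drug-free interval that began on day 5. The mock group was the same line without DAC. Each group gave 1 droplet library, in which a unique molecular identifier (UMI) counts each captured transcript once. Cells from a single library do not replicate a treatment, so values are given without tests, and all intervals cover counting error only.

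*MAGEA4* belongs to the cancer-testis genes, which are expressed in germ cells and in many tumors but are silenced in most other tissues. The MAGEA genes lie together near the end of the long arm of the X chromosome, and methylation of their CpG-containing promoters is a known means of their silencing. Other cancer-testis families on the same chromosome, including GAGE, PAGE, and VCX, are also known to respond to demethylating drugs.

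*MAGEA4* (ENSG00000147381, chromosome X of hg38 from 151912495 to 151925171, plus strand) had no UMI in the 1783 mock-treated cells, and 3 counts of these cells, taken as the limit of a count of 0, are 0.168% (exact binomial 95% upper limit 0.207%). It had 8160 UMIs in DAC-treated cells, and 7733 of them (94.8%) were in the 449 MAGEA4-expressing cells. These cells had a median of 14 *MAGEA4* UMIs, with quartiles of 7 and 23 and a range from 3 to 87. The single cell with the most UMIs held 1.07% of the total, and the 10 cells with the most held 8.37%. Just inside the threshold, 41 cells had 3 UMIs and 24 had 4, and just outside it, 74 cells had 2 UMIs and 279 had 1. If every DAC-treated cell had taken an even share of its UMIs from *MAGEA4*, 370.3 cells would have had none, whereas 949 cells had none. Free RNA was not measured, since no cell type without *MAGEA4* was available within the DAC-treated library. The 458 barcodes with fewer than 10000 UMIs had 171 *MAGEA4* UMIs, and 61 of these were in MAGEA4-expressing cells. How many cells with 1 or 2 UMIs, or with few above the threshold, held free RNA was therefore not tested, and cells with 1 or 2 UMIs were kept as a separate group.

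**Figure D1:**
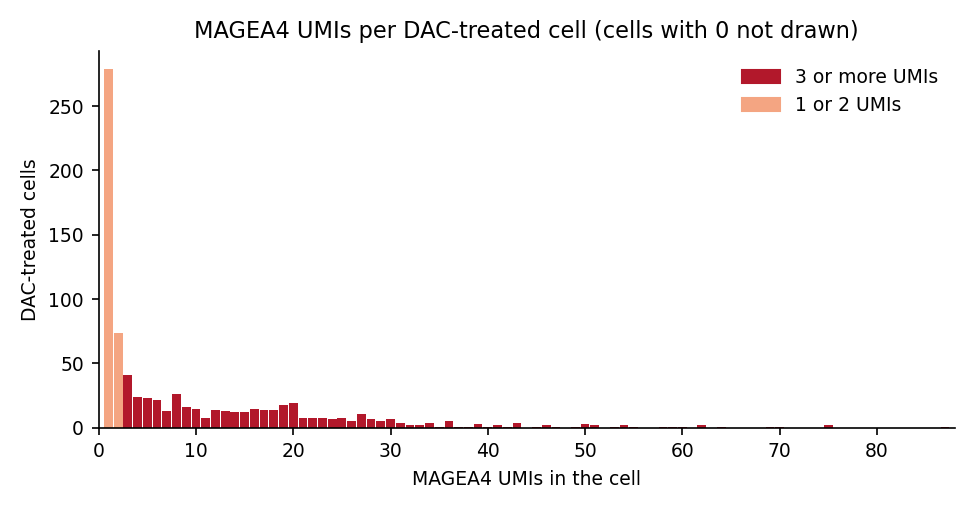
Number of DAC-treated cells (vertical axis) by their *MAGEA4* UMIs (horizontal axis), without the 949 cells that had none. Cells with 3 or more UMIs (dark bars) spread up to 87 UMIs, and 279 and 74 cells had 1 and 2 UMIs (light bars).

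For comparison, cells with 10000 or more UMIs were thinned at random to 10000 UMIs each. This left 438 MAGEA4-expressing cells, 262 cells with 1 or 2 *MAGEA4* UMIs, 593 cells with none (MAGEA4-zero cells), and 1388 mock-treated cells. Before thinning, MAGEA4-expressing cells had a median of 47275 UMIs and MAGEA4-zero cells had 41763. Mitochondrial genes took more than 50% of the UMIs in 19 MAGEA4-expressing cells (4.34%) and in 101 MAGEA4-zero cells (17.0%), and main values are therefore also given without these cells, a choice made after the data were seen. The identity of the cells as epithelial was checked by 11 colon epithelial genes, which together had 71.9 UMIs per 10000 in MAGEA4-expressing and 85.0 in MAGEA4-zero cells (ratio 0.846, and 0.757 without cells with more than 50% mitochondrial UMIs). Of 9 genes counted, 5 had a ratio under 1, against 2859 of the 8119 genes counted in all. *EPCAM*, *KRT18*, and *KRT19* had ratios of 1.06, 0.804, and 1.06, and *KRT8*, given below, was lower than each of these. The 10 markers of blood, stromal, and endothelial cells together had 0.292 UMIs per 10000 in MAGEA4-expressing and 0.253 in MAGEA4-zero cells. Of these markers, *PTPRC*, *COL1A2*, and *COL3A1* were at 0 in MAGEA4-expressing cells, and *COL1A1* accounted for 95 of the UMIs. None of the 438 cells had a barcode in common with the mock-treated library.

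Promoter sequences of *MAGEA4* and of 4 X-linked genes that were higher in the same cells are shown because cytosines in CpG pairs are the positions that DAC demethylates. They are RefSeq windows of 300 bases on GRCh38.p14, from 250 bases before to 50 after the most upstream listed start, written 5′ to 3′ on the gene's strand, with each CpG in capitals. The windows are chrX:151912224-151912523 (plus strand, 10 CpGs), chrX:152733507-152733806 (plus, 9 CpGs), chrX:152769640-152769939 (minus, 19 CpGs), chrX:154295545-154295844 (plus, 18 CpGs), and chrX:8464580-8464879 (plus, 3 CpGs).
MAGEA4: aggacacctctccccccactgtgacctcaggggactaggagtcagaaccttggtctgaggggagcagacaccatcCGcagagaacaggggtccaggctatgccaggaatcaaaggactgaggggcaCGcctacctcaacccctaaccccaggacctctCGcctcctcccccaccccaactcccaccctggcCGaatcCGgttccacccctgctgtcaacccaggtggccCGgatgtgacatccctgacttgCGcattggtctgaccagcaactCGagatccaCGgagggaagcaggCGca
MAGEA12: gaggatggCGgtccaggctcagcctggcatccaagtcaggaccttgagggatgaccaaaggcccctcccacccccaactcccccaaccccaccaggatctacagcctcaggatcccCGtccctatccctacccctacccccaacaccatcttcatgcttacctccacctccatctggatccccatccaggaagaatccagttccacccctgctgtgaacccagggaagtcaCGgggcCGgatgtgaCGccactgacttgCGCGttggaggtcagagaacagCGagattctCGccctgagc
MAGEA6: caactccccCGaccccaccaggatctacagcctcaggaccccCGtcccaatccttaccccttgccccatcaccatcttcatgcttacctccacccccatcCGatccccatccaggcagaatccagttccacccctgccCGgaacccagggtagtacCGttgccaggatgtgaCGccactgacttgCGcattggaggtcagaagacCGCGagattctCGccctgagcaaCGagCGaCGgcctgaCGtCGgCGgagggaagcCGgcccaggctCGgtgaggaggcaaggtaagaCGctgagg
TKTL1: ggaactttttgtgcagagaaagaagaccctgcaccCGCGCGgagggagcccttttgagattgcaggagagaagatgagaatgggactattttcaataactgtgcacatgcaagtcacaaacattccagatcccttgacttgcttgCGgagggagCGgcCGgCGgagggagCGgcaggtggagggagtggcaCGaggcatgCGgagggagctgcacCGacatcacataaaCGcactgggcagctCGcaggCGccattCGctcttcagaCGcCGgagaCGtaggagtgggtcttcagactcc
VCX3B: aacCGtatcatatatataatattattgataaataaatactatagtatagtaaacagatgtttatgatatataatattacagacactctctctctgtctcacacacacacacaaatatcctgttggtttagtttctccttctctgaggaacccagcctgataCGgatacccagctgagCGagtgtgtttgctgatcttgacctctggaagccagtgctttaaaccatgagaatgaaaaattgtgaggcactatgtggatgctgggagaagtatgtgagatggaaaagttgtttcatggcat

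The windows of *MAGEA4*, *MAGEA12*, and *MAGEA6* shared the letters GGATGTGA, which were searched on both strands after the sequences were seen. They occurred in 1.16% of 27305 RefSeq promoters, and these 3 genes belong to the same gene family, so that shared letters are not independent. In *MAGEA4* and *MAGEA12* the letters overlapped CCGGAT, present in 7.03% of all promoters. The 16 nearly silent X-linked genes with a window had a median of 13 CpGs (range 1 to 23), the same as all promoters, and the 74 autosomal ones had 22.5. Methylation was not measured in these cells.

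The first question was whether other germline genes were higher in the same cells. Germline genes outside the MAGEA family had 26.5 UMIs per 10000 in MAGEA4-expressing cells, 12.2 in MAGEA4-zero cells, and 4.2 in mock-treated cells, a ratio of expressing to zero cells of 2.18 (95% confidence interval 2.12 to 2.25). Of 148 listed genes, 33 had 100 or more thinned UMIs and were counted, and 13 of them were 2-fold or more higher in MAGEA4-expressing cells and none was 2-fold or more lower. Over all genes counted, 62 of 8119 (0.764%) were 2-fold or more higher, and 10 (0.123%) were lower. Of 106 counted genes on no germline or MAGEA list with 2 or fewer UMIs in every mock-treated cell, 16 were 2-fold or more higher. Summed over all such genes, counted or not, the ratio was 1.30 (1.29 to 1.32). Because a gene can reach 100 UMIs through MAGEA4-expressing cells alone, the count was repeated with 100 UMIs required in MAGEA4-zero cells, after the data were seen. Then 8 of 20 germline genes were 2-fold or more higher, against 19 of 6069 genes in all (0.313%), and the 8 were 6 X-linked germline genes and 2 VCX genes. All 13 were X-linked. X-linked germline genes had a ratio of 3.12 (2.97 to 3.28), with 10 of 12 genes 2-fold or more higher, and VCX genes had a ratio of 6.71 (6.08 to 7.41). VCX UMIs were in a minority of cells, 29.9% of MAGEA4-expressing and 14.7% of MAGEA4-zero cells, and cells with 1 or 2 *MAGEA4* UMIs had 0.779 per 10000 against 0.823 in MAGEA4-zero cells. Autosomal germline genes had a ratio of 1.21 (1.16 to 1.26), with none of 18 genes 2-fold or more higher. Their median log2 ratio of 0.23 compares with 0.10 over all genes counted. Without cells with more than 50% mitochondrial UMIs, the ratios were 2.84 for X-linked, 5.97 for VCX, and 1.12 for autosomal germline genes.

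In the MAGEA family, 5 other genes were counted. Only *MAGEA3* among them had 100 UMIs in MAGEA4-zero cells, and the other 4 reached the minimum through MAGEA4-expressing cells, so that their ratios are given as a description. *MAGEA10* had 0.331 UMIs per 10000 in MAGEA4-expressing and 0.0169 in MAGEA4-zero cells (ratio 19.6, 10.4 to 41.8). *MAGEA1* had a ratio of 12.6 (7.71 to 21.7), *MAGEA6* of 11.6 (7.68 to 18.1), and *MAGEA12* of 6.57 (4.78 to 9.19). *MAGEA10* rested on 10 UMIs in MAGEA4-zero cells, and its ratio was 55.6 without cells with more than 50% mitochondrial UMIs. *MAGEA3*, a near copy of *MAGEA6* between which reads can be split, was already expressed in mock-treated cells at 0.557 UMIs per 10000, and its ratio was only 1.31 (1.15 to 1.49). *MAGEA11* (77 against 10 UMIs) and *MAGEA8* (14 against 3 UMIs) had too few UMIs to be counted. *MAGEA2*, *MAGEA2B*, *MAGEA9*, and *MAGEA9B*, which also have near copies, had at most 5 UMIs in either group.

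Among other X-linked germline genes, *CTAG2*, which encodes a cancer-testis antigen related to NY-ESO-1, had 1.34 UMIs per 10000 in MAGEA4-expressing and 0.143 in MAGEA4-zero cells (ratio 9.37, 7.45 to 11.9). *MAGEC2* had a ratio of 13.7 (7.35 to 28.2), from 111 against 11 UMIs. Both had under 100 UMIs in MAGEA4-zero cells, and their ratios are a description. *TKTL1* is also X-linked but was on no germline list, and it encodes a protein related to the pentose phosphate enzyme transketolase. Its ratio was 4.42 (3.81 to 5.14). On the short arm and near the centromere, *VCX3A* and *VCX3B* had ratios of 6.81 (5.79 to 8.03) and 6.58 (5.77 to 7.52). *GAGE12H* had a ratio of 4.31 (3.63 to 5.15), *PAGE1* of 3.46 (2.92 to 4.13), and *PAGE2* of 2.75 (2.22 to 3.43). Counting can split reads between *VCX3A* and *VCX3B*, between GAGE genes, and between *PAGE2* and *PAGE2B*. For *VCX3B*, 9.84% of the UMIs in MAGEA4-expressing cells came from 1 cell. *MAGEB2*, which was expressed in mock-treated cells at 0.671 UMIs per 10000, had a ratio of 1.17 (1.03 to 1.32).

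The autosomal germline genes differed little. *PRAME*, a cancer-testis antigen on chromosome 22, had 0.632 UMIs per 10000 in MAGEA4-expressing and 0.455 in MAGEA4-zero cells (ratio 1.39, 1.17 to 1.65). *MAEL*, a piRNA pathway gene that had no UMI in thinned mock-treated cells, had a ratio of 1.18 (0.977 to 1.42). *LY6K* and *SPAG9* had ratios of 1.38 and 1.49, and *GTSF1* and *MND1* of 0.969 and 0.752. The interval of *MAEL* included 1.

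Positions were then compared for genes nearly silent before treatment, defined as genes with 2 or fewer UMIs in every mock-treated cell. All 20 such genes on the X chromosome that had 100 or more thinned UMIs were 2-fold or more higher in MAGEA4-expressing cells, with ratios from 2.75 to 19.6. The number was 18 when cells were chosen after thinning (*PAGE2* at 1.83), 19 with another random seed (*SMIM10* at 1.78), and 18 against cells with 1 or 2 *MAGEA4* UMIs. Of 113 such autosomal genes, 10 were 2-fold or more higher, and over both classes 22.6% were higher and 0.752% lower. A gene can reach the minimum through its UMIs in MAGEA4-expressing cells alone. When 100 UMIs were required in MAGEA4-zero cells, 8 of 8 X-linked and 2 of 44 autosomal genes were 2-fold or more higher. Summed over all 727 nearly silent X-linked genes, the ratio was 4.09 (3.93 to 4.25), from 24.2 against 5.91 UMIs per 10000, and for the 707 genes under the minimum it was 2.22 (2.09 to 2.37). Summed over the nearly silent autosomal genes it was 1.26 (1.24 to 1.27). X-linked genes that were not nearly silent had a ratio of 1.13 (1.12 to 1.14), and 1.03 without cells with more than 50% mitochondrial UMIs.

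Summed over all 111 nearly silent genes within 10 Mb of the start of *MAGEA4*, with no minimum of UMIs, the ratio was 6.27 (5.81 to 6.76), and over the 616 genes farther away it was 3.4 (3.25 to 3.56). Single genes overlapped between these distances, from 4.42 to 19.6 for the 10 counted within 10 Mb and from 2.75 to 6.81 for the 10 counted farther away. Of the 10 within 10 Mb, only *TKTL1* had 100 UMIs in MAGEA4-zero cells, and its ratio of 4.42 was below those of the distant *VCX3A* and *VCX3B*. The other 9 reached the minimum through MAGEA4-expressing cells, so that their ratios are no support for a difference by distance. The 10 counted genes also supplied most of the UMIs in the sum within 10 Mb. The genes under the minimum were not summed for each distance. Within this window, besides the genes above, *FMR1NB* had a ratio of 10.6, *PNMA5* of 7.92, and *PNMA6E* of 8.39. Far from it, *XIST*, the RNA that silences 1 X chromosome in female cells, had a ratio of 3.28 (2.34 to 4.65), and *SMIM10* of 2.96 (2.04 to 4.35). With 50 and 43 UMIs in MAGEA4-zero cells, both ratios are a description. Compared with cells with 1 or 2 *MAGEA4* UMIs, the ratio of *XIST* was 0.658. Genes within 1 Mb that were not nearly silent and had 100 or more thinned UMIs had ratios from 0.686 (*ZNF185*) to 1.39 (*NSDHL*), except *CSAG1*. Among them, *HMGB3* and *CETN2* were at 1.05. *CSAG1*, next to *MAGEA12*, was at 3.74 (2.69 to 5.27), from 138 against 50 UMIs, so that its ratio is a description. *PASD1*, with 69 against 5 UMIs, and *MAGEA4-AS1*, an antisense transcript overlapping *MAGEA4* with 36 against 9 UMIs, were under the minimum.

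**Figure D2:**
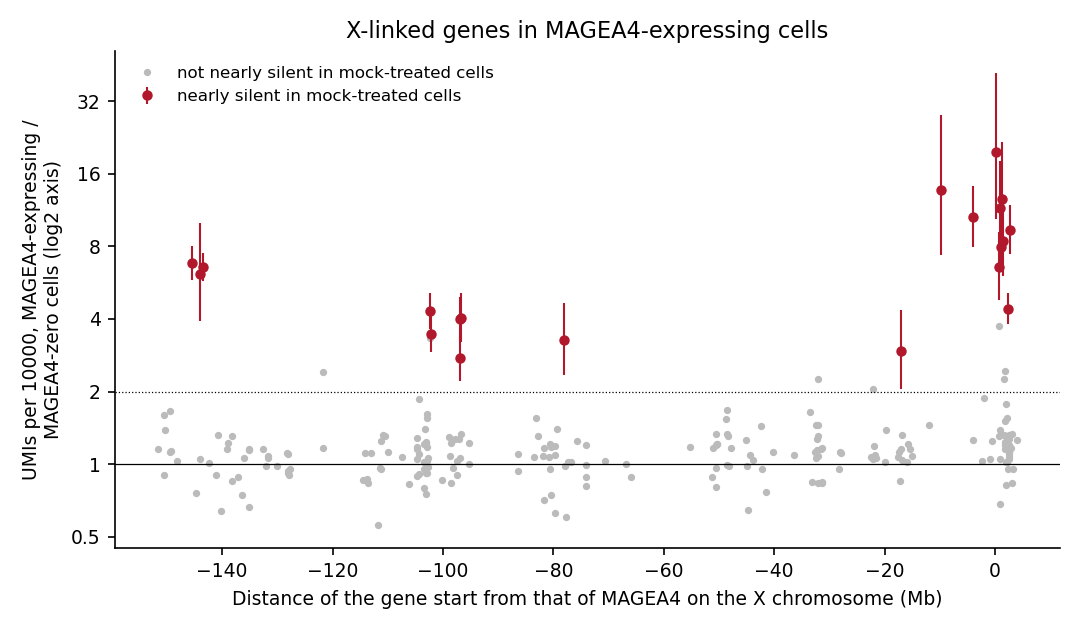
Ratio of UMIs per 10000 between MAGEA4-expressing and MAGEA4-zero cells (vertical log2 axis) of X-linked genes, by the distance of their start from that of *MAGEA4* in Mb (horizontal axis). The 20 genes nearly silent in mock-treated cells (red, with 95% counting intervals) lie between 2.75 and 19.6, above the dotted line at 2, and the other X-linked genes (grey) center near 1.

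After thinning, *FMR1NB* was detected in 44.1% of MAGEA4-expressing cells, 16.8% of cells with 1 or 2 *MAGEA4* UMIs, and 6.41% of MAGEA4-zero cells. *PNMA5* was detected in 46.6%, 19.8%, and 8.26%, and *TKTL1* in 52.1%, 27.9%, and 15.2% of these cells. No UMI of these 3 genes was present in thinned mock-treated cells. *FMR1NB* and *PNMA5* had under 100 UMIs in MAGEA4-zero cells, so that their shares are a description. *SAP25*, an autosomal gene nearly absent before treatment, was detected in 56.8%, 54.2%, and 56.0%, and *MEG3*, an imprinted long non-coding RNA, in 53%, 51.5%, and 46.7%. Using all UMIs and 3 or more UMIs per gene, 33.9% of the 1293 cells were MAGEA4-expressing. They made up 81.3% (74.9 to 86.6%) of the *MAGEA6*-expressing cells, 79.1% (73.1 to 84.3%) of the *CTAG2*-expressing cells, 61.6% of the *VCX3B*-, 61.4% of the *PAGE1*-, and 54.3% of the *GAGE2A*-expressing cells. Among autosomal genes, they made up 36.3% (32.6 to 40.2%) of the *MEG3*-, 34.6% of the *SAP25*-, and 35.2% of the *UCHL1*-expressing cells. The share was higher for *LY6K* (40.4%, 36.6 to 44.1%), *KRTAP3-1* (40.9%, 35.7 to 46.4%), and *LINC00958* (43.6%, 39.2 to 48.0%). These genes were chosen after their values were seen. *MAGEA6* and *CTAG2* also had under 100 UMIs in MAGEA4-zero cells, so that their overlaps are a description. In the other direction, 34.7% of MAGEA4-expressing cells expressed *MAGEA6* and 39.7% expressed *CTAG2*, so that most of them lacked either gene at this threshold.

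**Figure D3:**
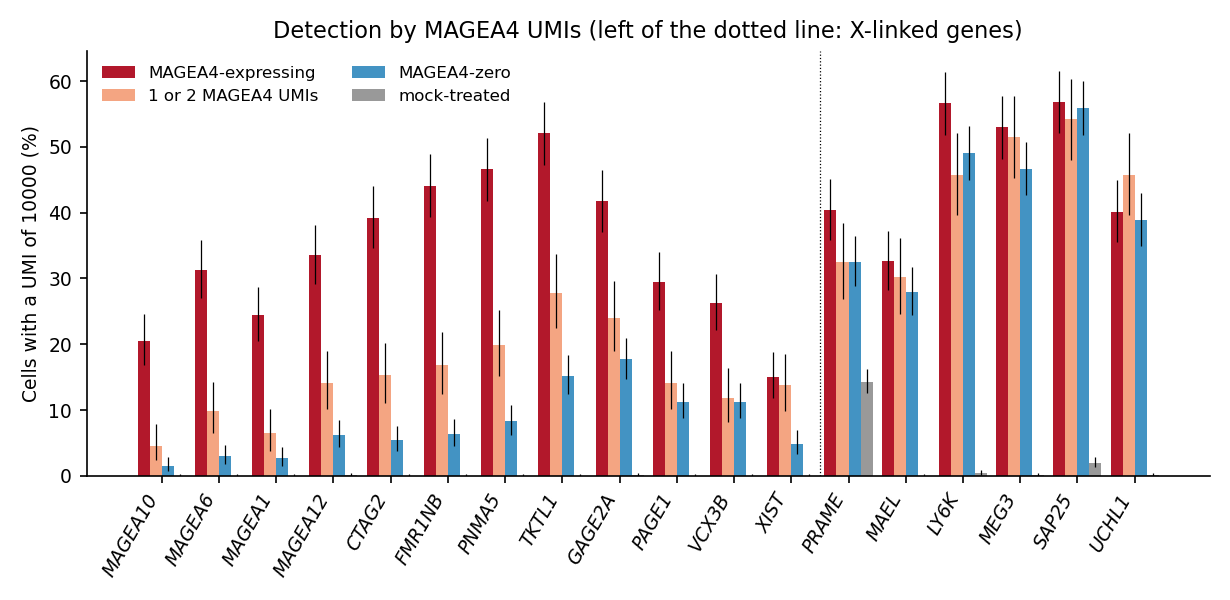
Percentage of cells with a UMI of each gene after thinning to 10000 UMIs (vertical axis), for MAGEA4-expressing cells, cells with 1 or 2 *MAGEA4* UMIs, MAGEA4-zero cells, and mock-treated cells, with exact binomial 95% intervals. For X-linked genes left of the dotted line, such as *FMR1NB* (44.1% against 6.41%), bars are highest in MAGEA4-expressing cells. Among autosomal genes, bars are level for *SAP25* (56.8% against 56.0%). They are also highest in MAGEA4-expressing cells for *PRAME* (40.4% against 32.5%) and *LY6K* (56.6% against 49.1%).

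Joint detection in a cell was counted for 5 X-linked genes, *MAGEA6*, *CTAG2*, *FMR1NB*, *PNMA5*, and *TKTL1*. At least 3 of the 5 genes were detected in 41.1% of MAGEA4-expressing cells and in 3.20% of MAGEA4-zero cells. These genes were chosen after their values were seen, and all but *TKTL1* reached 100 UMIs only through MAGEA4-expressing cells, so that the shares are a description only. Among MAGEA4-zero cells, 65 cells had a *CTAG2* UMI before thinning, and they had more thinned UMIs than the 528 cells without one for *MAGEA6* (ratio 8.12, 3.47 to 19.0), *PNMA5* (4.90, 3.13 to 7.58), *PNMA6E* (5.20, 2.59 to 10.1), *TKTL1* (5.18, 3.94 to 6.80), and *MAGEA12* (2.48, 1.14 to 4.98). For *FMR1NB* the ratio was 2.08 and the interval included 1 (0.966 to 4.10). For *GAGE2A*, *PAGE1*, and *VCX3B*, the ratios were 0.886, 0.661, and 0.822, and their intervals included 1. *CTAG2* and the nearly silent X-linked genes compared here were chosen after their values were seen. The ratio of *MAGEA6* rested on 13 UMIs in each group of cells. Of the 5 autosomal genes compared, *MEG3*, *SAP25*, *LY6K*, and *UCHL1* had ratios from 0.855 to 1.15 with intervals that included 1, and *LINC00958* had 1.46 (1.07 to 1.96).

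Levels were also compared along the amount of *MAGEA4*. Nearly silent X-linked genes within 10 Mb had 1.41 UMIs per 10000 in cells with no *MAGEA4* UMI, 2.77 with 1 or 2, 5.71 with 3 to 9, 9.69 with 10 to 29, and 13.7 with 30 or more. Those farther than 10 Mb had 4.50, 6.05, 12.7, 14.5, and 24.7. Autosomal germline genes had 7.52, 7.61, 7.59, 9.66, and 11.0. Median total UMIs before thinning were 41763, 43045, 42252, 47396, and 59908 in these cells, so that the group with the most *MAGEA4* also had the deepest cells, and the part of depth in these levels was not tested. Within 3 groups of cells of similar total UMIs, the ratio of the X-linked genes within 10 Mb was 6.65, 6.92, and 5.44 from the shallowest to the deepest, and that of the genes farther than 10 Mb was 4.86, 3.06, and 2.70.

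**Figure D4:**
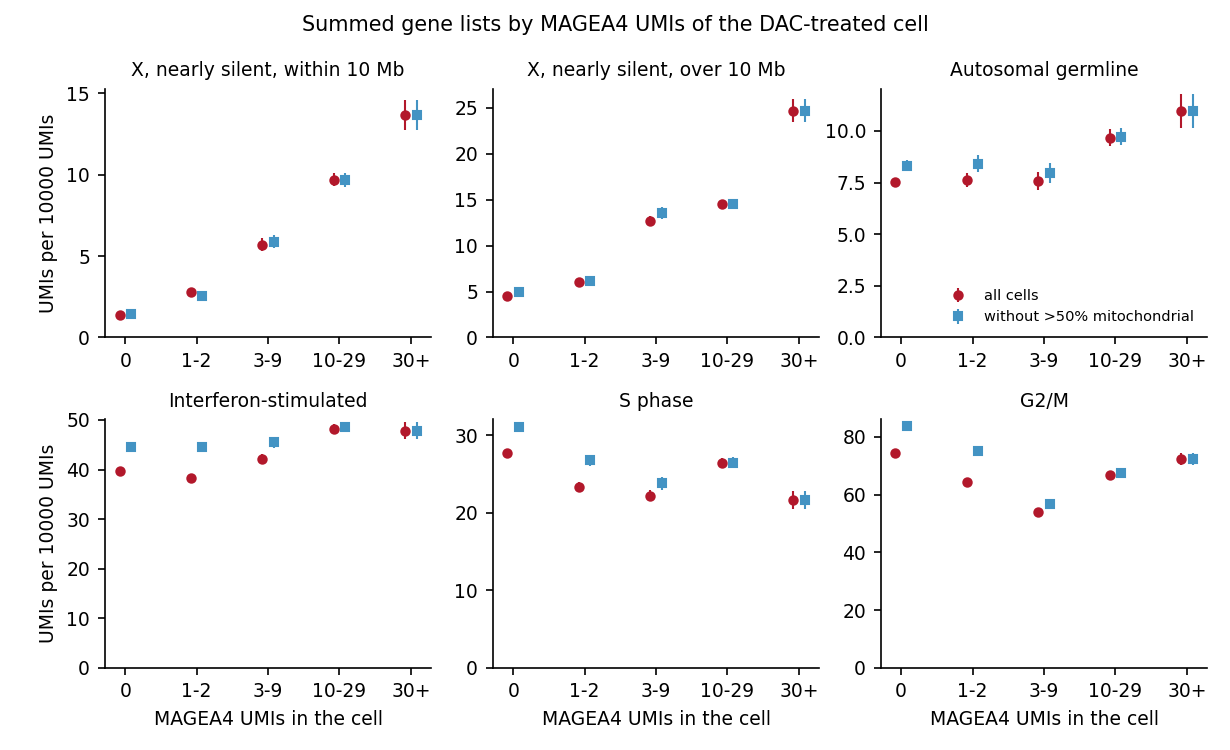
UMIs per 10000 of 6 gene lists (vertical axes, with exact Poisson 95% intervals) by the *MAGEA4* UMIs of the DAC-treated cell (horizontal axes), for all cells (circles) and without cells with more than 50% mitochondrial UMIs (squares). Nearly silent X-linked genes within 10 Mb increase from 1.41 to 13.7, and G2/M genes are lowest, at 53.8, in cells with 3 to 9 UMIs.

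Interferon-stimulated genes, which respond to viral or endogenous double-stranded RNA, had 46.0 UMIs per 10000 in MAGEA4-expressing, 39.7 in MAGEA4-zero, and 11.9 in mock-treated cells. The ratio of 1.16 (1.14 to 1.18) was 1.06 without cells with more than 50% mitochondrial UMIs, and 1.00 (0.967 to 1.03) among the deepest of 3 groups of cells by total UMIs, against 1.43 (1.39 to 1.48) among the shallowest, which was 1.11 (1.07 to 1.15) without cells with more than 50% mitochondrial UMIs. Of 33 genes counted, 1 was 2-fold or more higher, against 0.764% of all genes, and none was lower. This gene was *ISG20*, an exonuclease, with 0.416 against 0.152 UMIs per 10000 (ratio 2.74, 2.12 to 3.56). *IFI27* had a ratio of 1.42 (1.36 to 1.48), *ISG15* of 1.15 (1.11 to 1.19), and *IFI6* of 1.12 (1.06 to 1.18), whereas *BST2* was at 0.892 (0.794 to 1.00). The median log2 ratio of the 33 genes was 0.13, near the 0.10 of all genes. RNA and DNA sensors had a ratio of 0.994 (0.926 to 1.07), although *IFIH1*, which senses long double-stranded RNA, was at 1.63 (1.27 to 2.10). MHC class I genes had a ratio of 1.12 (1.09 to 1.16), and *B2M*, the shared light chain, of 1.17 (1.11 to 1.22).

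Summed cell cycle genes were lower in MAGEA4-expressing cells. G2/M genes had 63.1 UMIs per 10000 in MAGEA4-expressing and 74.3 in MAGEA4-zero cells (ratio 0.849, 0.836 to 0.862), and 0.772 without cells with more than 50% mitochondrial UMIs. Of 53 genes counted, 49 had a ratio under 1, against 2859 of the 8119 genes counted in all. Only *NEK2*, a centrosomal kinase, was 2-fold or more lower (0.432, 0.329 to 0.563), against 0.123% of all genes. *MKI67*, a marker of proliferating cells, had 2.64 against 4.33 UMIs per 10000 (ratio 0.610, 0.569 to 0.654), and *CENPF*, a kinetochore protein, had a ratio of 0.641 (0.595 to 0.690). Outside this list, *ASPM*, a spindle protein, and *CCNF*, a cyclin, were also 2-fold or more lower, at 0.485 and 0.455. *CKS2*, *JPT1*, and *TUBB4B* were at 1.08, 1.13, and 1.04, and under 1 without cells with more than 50% mitochondrial UMIs. S-phase genes had 24.2 against 27.7 UMIs per 10000 (ratio 0.876, 0.855 to 0.897). Of 39 genes counted, 35 had a ratio under 1 and none was 2-fold apart, with *RRM2*, a ribonucleotide reductase subunit, at 0.732 and *SLBP*, which binds histone mRNA, at 1.21. Compared with cells with 1 or 2 *MAGEA4* UMIs, the ratio of S-phase genes turned to 1.04 and that of G2/M genes was 0.981, but 53 of those 262 cells (20.2%) had more than 50% mitochondrial UMIs. Without such cells, S-phase genes had 24.9 UMIs per 10000 in MAGEA4-expressing cells and 26.8 in cells with 1 or 2, and G2/M genes had 64.6 and 75.1.

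G2/M UMIs were above the 90th percentile of MAGEA4-zero cells in 18 MAGEA4-expressing cells (4.11%, 2.45 to 6.42%), against 60 MAGEA4-zero cells (10.1%, 7.81 to 12.8%). They were below the 10th percentile in 7.31% (5.05 to 10.2%) and 9.11% (6.91 to 11.7%), and below the 25th in 28.1% and 24.8%. Without cells with more than 50% mitochondrial UMIs, 3.58% and 9.96% were above the 90th percentile, 11.5% and 9.35% below the 10th, and 37.9% and 24.6% below the 25th. The median was 53.5 UMIs in MAGEA4-expressing, 73 in MAGEA4-zero, and 15 in mock-treated cells. By the amount of *MAGEA4* there was no single direction, with 74.3, 64.3, 53.8, 66.9, and 72.3 UMIs per 10000 from no *MAGEA4* UMI to 30 or more. Cell cycle inhibitors together had a ratio of 0.987 (0.925 to 1.05), with *CDKN2A* at 0.711 (0.612 to 0.824), *CDKN1C* at 1.54 (1.18 to 2.02), and *CDKN1A* at 1.07 (0.974 to 1.17). Target genes of p53 had a ratio of 0.997 (0.964 to 1.03). Without cells with more than 50% mitochondrial UMIs, the inhibitors had a ratio of 0.889 (0.833 to 0.949) and p53 targets of 0.934 (0.902 to 0.966).

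**Figure D5:**
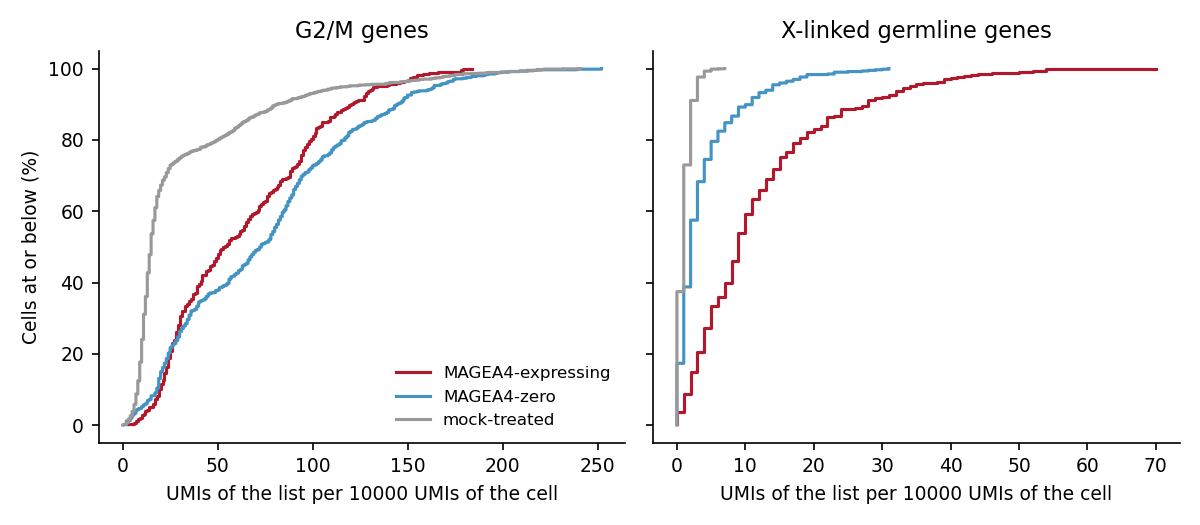
Cumulative percentage of cells (vertical axis) by UMIs per 10000 of G2/M genes (left) and X-linked germline genes (right) in MAGEA4-expressing, MAGEA4-zero, and mock-treated cells. The median of G2/M genes is 53.5 in MAGEA4-expressing and 73 in MAGEA4-zero cells, and that of X-linked germline genes is 9 and 2.

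Further genes were named by their ratio among genes with 200 or more thinned UMIs, or as members of a list. *AP000692.2* on chromosome 21 had a ratio of 5.42 (3.84 to 7.79), and *CXCL8*, a chemokine, of 4.11 (3.01 to 5.70), with 21.4% and 36.6% of their UMIs in MAGEA4-expressing cells from 1 cell each. *KRTAP3-1*, a keratin-associated protein, had 1.84 against 0.580 UMIs per 10000 (ratio 3.18, 2.80 to 3.62). *KRT13* and *TAGLN* were lower, at 0.473 and 0.463, and 32.7% of the *KRT13* UMIs in MAGEA4-expressing cells came from 1 cell. Against cells with 1 or 2 *MAGEA4* UMIs, *KRT13* turned to 1.59. *KRT8* was at 0.738 (0.716 to 0.760). Among cleavage-stage genes, *H3.Y* was at 3.02, with 93.8% of its UMIs in MAGEA4-expressing cells from 1 cell, and at 0.638 against cells with 1 or 2 *MAGEA4* UMIs. The maintenance methyltransferase *DNMT1*, a target of DAC, was at 0.907 (0.831 to 0.990), and *UHRF1*, which recruits it to newly replicated DNA, at 0.797 (0.660 to 0.959). DNA methylation genes together had a ratio of 1.03 (0.973 to 1.08), and housekeeping genes of 1.02 (1.01 to 1.03). Without cells with more than 50% mitochondrial UMIs, these were 0.973 (0.921 to 1.03) and 0.905 (0.896 to 0.915).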

How the data were processed

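Droplet libraries of mock- and DAC-treated HCT116 cells were deposited as UMI counts per gene and cell, which the authors made with Cell Ranger on hg38. All deposited barcodes were used as cells. They outnumber the live cells that the study states were used per library, and how barcodes were called as cells is not given in the sources used here. Doublets were not called. All cells are the same cell line, so that doublets within a library could not be seen by cell type. Their part in the joint detection of genes was not tested. The libraries held 49911689 (mock) and 59046165 (DAC) UMIs over 33538 genes, with medians of 27899 and 35340 UMIs per cell. Genes were matched by Ensembl identifier, since 24 names repeat, and positions were taken from GENCODE 44. Cells with 10000 or more UMIs were thinned without replacement to 10000 UMIs and summed by group. Ratios of sums have conditional binomial, levels exact Poisson, and shares exact binomial 95% intervals, computed with Python 3.11.15, numpy 2.4.6, scipy 1.17.1, and pandas 2.3.3. Genes with 100 or more thinned UMIs over both groups were counted as higher or lower from a ratio of 2. The code was tested on simulated data.

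Named genes were *MAGEA4*, the MAGEA family, up to 6 members of each list with the most UMIs and any member 2-fold apart, the 15 highest and 10 lowest ratios among genes with 200 or more thinned UMIs, and genes within 1 Mb of *MAGEA4*. The nearly silent X-linked genes, *LINC00958*, and *UCHL1* were named after their values were seen. Members and lists were chosen with earlier results of these data known. Alternatives were other *MAGEA4* thresholds, reference cells, depths, minimums, scalings, and cell filters.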

Additional observations from a re-analysis of the deposited data

How the results depend on the processing

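No paired analysis was possible because each condition had 1 library. Every value rests on that 1 DAC-treated library, and intervals do not cover variation between cultures. The ratio of germline genes outside the MAGEA family (2.18) was 2.39 with 10 or more *MAGEA4* UMIs, 1.95 against cells with 1 or 2, 1.87 with cells chosen after thinning, 1.93 at 20000 UMIs, 1.97 without thinning, 1.92 and 2.01 without cells over 20% and 50% mitochondrial UMIs, 2.25 without the 5% of cells with the most UMIs, 2.03 by median-of-ratios scaling, and 2 as a ratio of medians. In the same order, nearly silent X-linked genes (4.09) had 4.62, 2.74, 3.03, 3.80, and 3.72, then 3.92 without cells over 50%, 4.31, 3.81, and 5.33. Nearly silent genes on no germline list (1.30) had 1.34, 1.12, and 1.24, then 1.32 without the 5%, 1.22 by scaling, 1.26 by medians, and 1.32 within 3 depth groups. Interferon-stimulated genes (1.16) had 1.21 and 1.20, then 1.07 at 20000 UMIs, 1.08 without thinning, 1.09 and 1.06 by mitochondrial share, 1.18 without the 5%, 1.08 by scaling, and 1.33 by medians. S-phase genes (0.876) had 0.916 with 10 or more UMIs and turned to 1.04 against cells with 1 or 2 (not so without cells over 50% mitochondrial UMIs, at 24.9 against 26.8 UMIs per 10000), then had 0.902, 0.790, 0.828, 0.802 without cells over 50%, 0.817 by scaling, and 0.821 by medians. G2/M genes (0.849) had 0.917, 0.981, 0.866, 0.780, 0.801, 0.827 and 0.772 by mitochondrial share, 0.792 by scaling, 0.733 by medians, and 0.824 within depth groups.

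The 62 genes 2-fold or more higher became 100 at 20000 UMIs, 171 without thinning, and 410 and 17 with minimums of 20 and 400 UMIs. The 10 lower genes became 17 with 10 or more *MAGEA4* UMIs, 2 against cells with 1 or 2, 17 without thinning, 18 by scaling, and 110 and 2 with these minimums. The share of 25.6% was 16.2% with 10 or more UMIs, 19.7% with 3 of 10000 after thinning, and 30.03% without cells over 50%. Against cells with 1 or 2 UMIs, *KRT13* turned to 1.59 and *H3.Y* to 0.638. Of 19 named genes under 100 UMIs and 2-fold or more apart, 8 had a ratio on the other side of 1 under an alternative. Leaving out cells over 50% and all values of the nearly silent X-linked genes were added after seeing the data. The cause of these differences was not tested.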
